A study of Arabidopsis thaliana with 10 samples.

Results

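The comparison described here is P1-12 (+0.25 μM Dex) against KRAB (+0.25 μM Dex), that is, an Arabidopsis line with an sgRNA against *MORF2* and a line without one, both grown on the same dose of the inducer. Its members are 4 of the 10 RNA-seq libraries of the series, 2 of each group, compared across all 33602 loci of the count table. Both lines are Col-0 plants with the same dCas9-KRAB repressor gene under the dexamethasone (Dex)-inducible promoter of pTA7002, and P1-12 also carries the sgRNA P1 under the U6-26 promoter (genotype pTA7002-Dexp:KRAB U6-26p:P1). RNA came from whole 8-d-old seedlings grown in long days on half-strength MS medium with sucrose and 0.25 μM Dex. The remaining 6 libraries are P1-12 (+0.025 μM Dex), P1-12 (+DMSO) and KRAB (+DMSO), 2 of each. Each genotype is 1 transgenic line, so the effect of the sgRNA and any other difference between the lines cannot be told apart within this comparison, and the P1-12 and KRAB libraries with DMSO are the measure of what the lines differ by without the inducer. The libraries of a group are called biological replicates in the study, with no account of whether their seedlings were grown separately, so the p-values measure the spread between libraries. Whole seedlings are a mixture, and fewer cells of a type and less RNA per cell cannot be told apart in any result below.

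CRISPR interference uses a Cas9 that no longer cuts DNA. The sgRNA brings it, fused to the KRAB repressor domain, to the start of a gene, and transcription there is lowered. MORF2 is one of the 2 members of the MORF family that are best known for C-to-U RNA editing in chloroplasts, where pentatricopeptide repeat proteins choose the site and MORF proteins are needed for its editing. Loss of plastid gene expression is known to lower nuclear genes for photosynthesis through retrograde signals, and chloroplasts also house steps of sulfate assimilation, glucosinolate synthesis and the synthesis of salicylic acid and jasmonic acid.

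The designed difference between the lines is the whole sgRNA cassette, which KRAB lacks. The P1 protospacer is shown because it is the part of the sgRNA that sets the target. It is written 5′ to 3′ in lower case, and the capitals mark the adjacent PAM read from the genome.
P1: gaactggtaagaagtaagaaAGG
Within TAIR10.1 its 20 bases match exactly at 1 place, chr2:14162303-14162322, plus strand. The annotation used here places that position in the 3′ part of AT2G33420, and the labels place it around the transcription start site of *MORF2*.

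The 4 libraries held 9139050 and 10236033 counts in P1-12 (+0.25 μM Dex), and 40544617 and 11258981 counts in KRAB (+0.25 μM Dex), so 1 KRAB library is the deepest of the series. The 10 most abundant genes took 3.90% and 3.76% of the counts in the P1-12 libraries, against 6.04% and 5.87% in the KRAB libraries. A gene was tested if it had more than 2 CPM (counts scaled to the size of the library) in at least 9 of the 10 libraries, which 16721 genes did. Levels are given as CPM after TMM scaling, and differences as the log2 fold change (log2FC) of P1-12 over KRAB from edgeR's quasi-likelihood test with its Benjamini-Hochberg adjusted p. One library stood apart: P1-12 (+0.25 μM Dex) replicate 1 held 0.160% of its counts in 24 seed storage and seed maturation genes, and replicate 2 held 0.0180%, against 0.000597% and 0.000551% in the KRAB libraries. None of these 24 genes passed this filter, so none is among the 16721 genes tested, while under the relaxed filter used near the end some of them are counted. Unless a group is named otherwise, the P1-12 and KRAB libraries below are those with 0.25 μM Dex.

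*MORF2* (AT2G33430) had 52.3 and 56.0 CPM in the P1-12 libraries, against 116 and 123 CPM in the KRAB libraries. The groups did not overlap, and the level fell in P1-12 (log2FC −1.14, SE 0.07, 95% interval −1.29 to −0.98, adjusted p = 1.34e-08). It had 113 and 118 CPM in P1-12 (+DMSO), against 124 and 118 CPM in KRAB (+DMSO), where no difference was called (log2FC −0.07). Of the 8 members of the MORF family tested, *MORF2* included, 6 fell and none rose at an adjusted p under 0.05 in edgeR's test. Their median log2FC was −0.46, beside 30.9% falling and a median of −0.01 among all tested genes. The chloroplast member *MORF9* fell by 1.11 on the log2 scale (55.6 and 53.6 CPM in P1-12, 120.1 and 115 CPM in KRAB), nearly as much as the targeted gene. *MORF5* fell by 0.62 and *MORF3*, a mitochondrial member, by 0.48.

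Of the other loci whose gene body lies within 10 kb of the P1 site, 4 were tested. AT2G33400, an FK506-binding nuclear-like protein gene 7725 bp away, had 55 and 54 counts in the P1-12 libraries, against 716 and 209 counts in the KRAB libraries, and fell by 1.74 on the log2 scale (SE 0.14, adjusted p = 8.32e-08). With DMSO no difference was called in AT2G33400 (log2FC 0.01). Between it and the site, AT2G33410, an RNA-binding protein gene 4439 bp away, rose by 0.25 (SE 0.07, adjusted p = 0.0092). AT2G33435, 2803 bp away on the other side, rose by 0.29 (SE 0.08, adjusted p = 0.00561), and AT2G33390, 9185 bp away, rose by 0.61 (SE 0.10, adjusted p = 0.00012). AT2G33420, which spans the site, had 1 count over the 4 libraries and was not tested. Of the 4 neighbours tested only AT2G33400 fell, beside 30.9% of all tested genes. Whether the repressor at the P1 site had a part in its fall was not tested.

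Across the 16721 tested genes, 944 were upregulated and 1253 downregulated in P1-12 as SDEGs, which are genes with an absolute log2FC of at least 1 and an adjusted p under 0.0001. These are 5.65% and 7.49% of the tested genes. At an adjusted p under 0.05 with no limit on the size, 4884 genes were higher and 5166 lower, which is 29.2% and 30.9%, and the median log2FC of all tested genes was −0.01. These 2 shares are the background for every list of genes below, in which "rose" and "fell" mean an adjusted p under 0.05. The upregulated SDEGs had a median log2FC of 1.45, and the downregulated ones −1.43. A log2FC of at least 2 was reached by 203 of the upregulated SDEGs, and one of at most −2 by 197 of the downregulated ones.

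**Figure D1:**
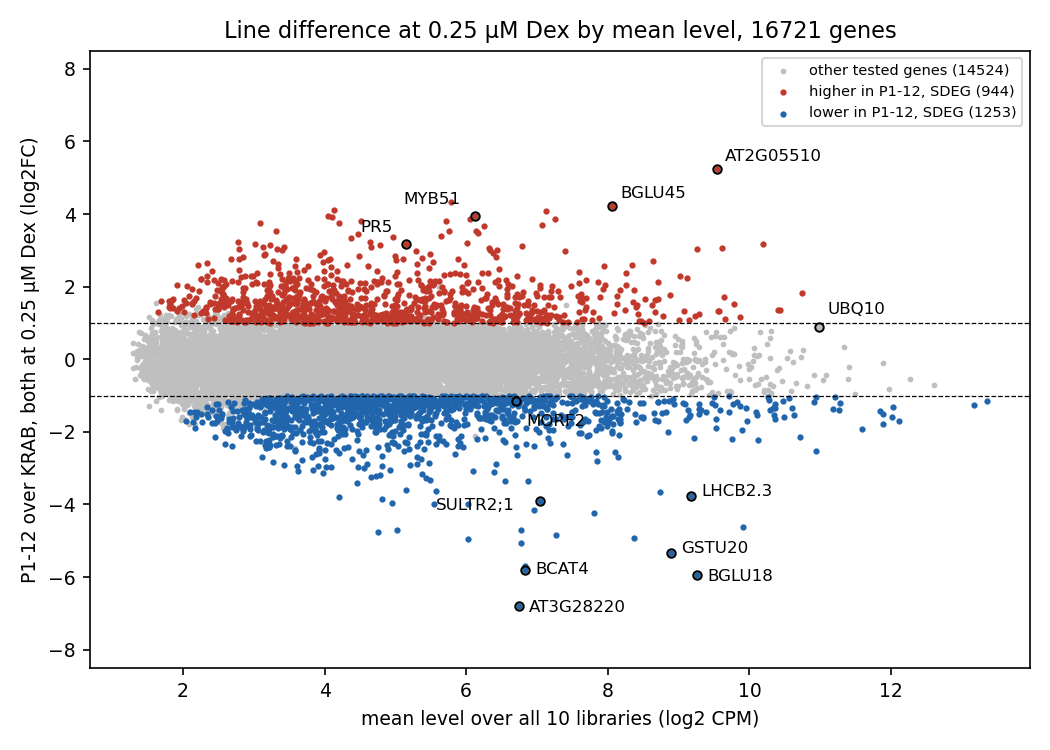
The log2FC of P1-12 over KRAB, both at 0.25 μM Dex (vertical axis), is plotted against the mean log2 CPM over all 10 libraries (horizontal axis), 1 point per tested gene. The 944 upregulated SDEGs are red, the 1253 downregulated ones blue, and dashed lines mark a log2FC of 1 and −1; the lowest point is AT3G28220 at −6.79 and the highest AT2G05510 at 5.24.

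P1-12 (+DMSO) and KRAB (+DMSO) share no library with the comparison above, and 2 genes differed between them at either threshold, 0.012% of those tested, both higher in P1-12. No gene was called lower there by edgeR with the main filter, and DESeq2 gave 0 downregulated SDEGs. In edgeR's test 880 genes had an unadjusted p under 0.05 in either direction. The SD of the log2FC across genes was 0.764 with Dex and 0.153 with DMSO. The 944 upregulated SDEGs had a median line difference of 0.03 with DMSO, between −0.65 and 2.57, and 6 of them reached an absolute value of 1. For the 1253 downregulated SDEGs the median was 0.01, between −0.78 and 0.76, and none reached 1. Across the 16721 genes the line differences with and without Dex had a Pearson correlation of 0.01, given as a description, since genes are not independent.

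The 2 genes that differed without Dex were SDEGs with Dex too. *XTH17*, which encodes a xyloglucan-modifying cell wall enzyme, had 60.1 and 72.1 CPM in P1-12 (+0.25 μM Dex), against 30.0 and 25.4 CPM in KRAB (+0.25 μM Dex). With DMSO it had 132 and 123 CPM in P1-12, against 20.7 and 22.1 CPM in KRAB. P1-12 was higher in both pairs, but its log2FC was 1.24 (SE 0.10, adjusted p = 1.36e-07) with Dex and 2.57 with DMSO. AT5G45470, annotated as a putative transmembrane protein, had 21.8 and 22.3 CPM in P1-12 (+0.25 μM Dex), against 4.78 and 3.47 CPM in KRAB (+0.25 μM Dex). With DMSO it had 29.4 and 29.0 CPM in P1-12, against 6.66 and 5.78 CPM in KRAB, so its line difference was 2.32 with Dex and 2.26 with DMSO.

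**Figure D2:**
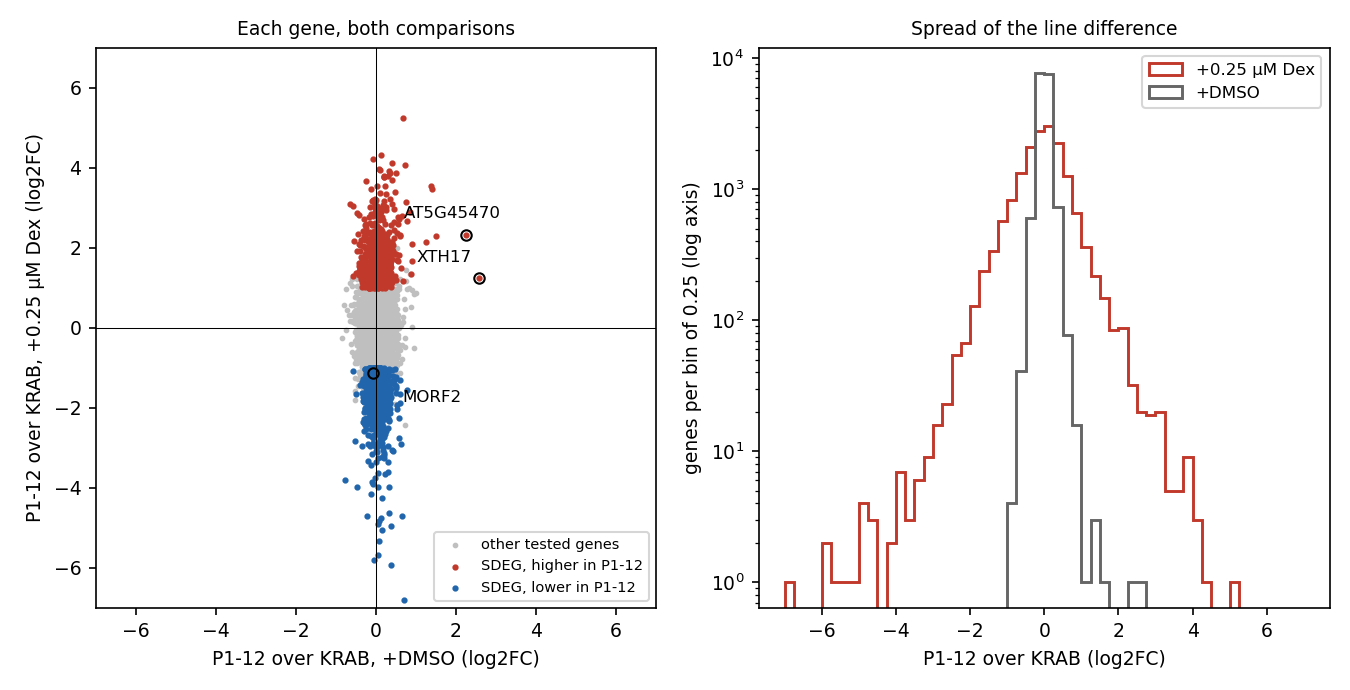
Left, the log2FC of P1-12 over KRAB at 0.25 μM Dex (vertical axis) against that with DMSO (horizontal axis, same scale), 1 point per tested gene with SDEGs in red and blue; right, the number of genes per bin of each log2FC on a log axis. The points form a vertical band, with an SD of 0.764 with Dex and 0.153 with DMSO, and *XTH17* (2.57 with DMSO) and AT5G45470 (2.26) lie outside it.

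The 12 upregulated SDEGs of largest log2FC ran from 3.80 to 5.24, and they held defence, senescence and chloroplast-encoded genes. AT2G05510, a glycine-rich protein gene, had 3564 and 3357 CPM in the P1-12 libraries, against 127 and 50.8 CPM in the KRAB libraries (log2FC 5.24, SE 0.32, adjusted p = 7.02e-09). *BGLU45*, a beta-glucosidase gene, had 945 and 921 CPM in P1-12, against 51.4 and 47.8 CPM in KRAB (4.23, SE 0.12, adjusted p = 1.63e-11). *MYB51*, an activator of indole glucosinolate synthesis, had 263 and 251 CPM in P1-12, against 16.6 ± 1.16 CPM in KRAB (SD, n = 2; 3.94, SE 0.09, adjusted p = 3.56e-12). In these 3 genes both P1-12 libraries lay well above both KRAB libraries, and the pair of P1-12 values was close.

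The other members of the 12 were AT5G05320, an oxidoreductase gene (4.33), *SAG29*, a senescence-associated sugar transporter gene (4.11), the defensin genes *PDF1.3* (4.08) and *PDF1.2* (3.87), *HIS1-3*, a drought-inducible linker histone gene (3.96), *CYP71B19* (3.91), *GAT1_2.1*, a glutamine amidotransferase-like gene (3.80), and the plastid-encoded ATCG00340 (3.86) and ATCG00350 (3.80). The *PDF1.2* copies are nearly identical and the authors' counting could split their reads, so single values of these genes are uncertain. None of the 12 was called between the lines without Dex, where their log2FC lay between −0.07 and 0.74.

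Several of these genes also moved in KRAB, which has no sgRNA. *BGLU45* had 3.91 and 3.61 CPM in KRAB (+DMSO), so KRAB (+0.25 μM Dex) was higher by 3.75 on the log2 scale (adjusted p = 2.33e-08). AT2G05510 had 10.4 and 6.84 CPM in KRAB (+DMSO), a difference of 3.49 within KRAB, and *MYB51* had 7.37 and 5.54 CPM there, a difference of 1.44. Of the 12 genes, 6 were higher and 1 lower in KRAB (+0.25 μM Dex) than in KRAB (+DMSO), beside 2.06% higher and 0.813% lower among all tested genes. *GAT1_2.1* went the other way: it had 55.8 and 55.5 CPM in P1-12 (+0.25 μM Dex) and 3.98 and 4.01 CPM in KRAB (+0.25 μM Dex), against 23.7 and 21.5 CPM in P1-12 (+DMSO) and 17.8 and 20.8 CPM in KRAB (+DMSO). Its log2FC of 3.80 between the lines at 0.25 μM Dex therefore stands beside a log2FC of −2.29 within KRAB. *GAD4*, a glutamate decarboxylase gene of the GABA shunt, had 484 and 473 CPM in P1-12, against 161 and 67.6 CPM in KRAB (log2FC 2.03), and KRAB (+DMSO) averaged 4.15 CPM. These within-line values share libraries with the main comparison and are given side by side only.

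The 12 downregulated SDEGs of largest size ran from −4.70 to −6.79, and 5 of them belong to the synthesis of aliphatic glucosinolates, the methionine-derived defence compounds of the cabbage family. *BCAT4*, whose product starts methionine chain elongation, had 2.95 and 2.62 CPM in the P1-12 libraries, against 152 and 157 CPM in the KRAB libraries (log2FC −5.79, SE 0.20, adjusted p = 5.36e-11). *MAM1*, the chain-elongating synthase gene, had 13.6 ± 6.46 CPM in P1-12, against 407 ± 36.7 CPM in KRAB (SD, n = 2 each; −4.91, SE 0.22). *CYP83A1*, which acts in the core pathway, had 9.37 and 5.43 CPM in P1-12, against 203 and 216 CPM in KRAB (−4.84, SE 0.17). The isopropylmalate isomerase genes *IPMI2* (−5.06) and *IPMI1* (−4.70) fell with them. With DMSO *BCAT4* had 121 and 169.7 CPM in P1-12 (+DMSO), against 162 and 141 CPM in KRAB (+DMSO).

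The other 7 were AT3G28220, a TRAF-like family gene (−6.79), *BGLU18*, a beta-glucosidase gene linked to abscisic acid release and ER bodies (−5.93), *MLP28* (−5.68), the tau-class glutathione transferase gene *GSTU20* (−5.33), AT1G52000, a mannose-binding lectin gene (−4.95), *RGF9*, a root meristem growth factor peptide gene (−4.77), and *CORI3*, a jasmonate-responsive gene of the tyrosine transaminase family (−4.71). Their precision differed. *MLP28* had 3.16 and 2.81 CPM in P1-12, against 157 and 149 CPM in KRAB, with an SE of 0.14. AT3G28220 had 1.80 ± 0.430 CPM in P1-12, against 198 ± 25.3 CPM in KRAB (SD, n = 2 each), with an SE of 0.71, and its spread within other groups was wide, with 71.7 and 287 CPM in P1-12 (+DMSO), against 143 and 80.6 CPM in KRAB (+DMSO). *BGLU18* showed the same spread, with 409.9 and 1553 CPM in P1-12 (+DMSO). None of the 12 was called between KRAB (+0.25 μM Dex) and KRAB (+DMSO).

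**Figure D3:**
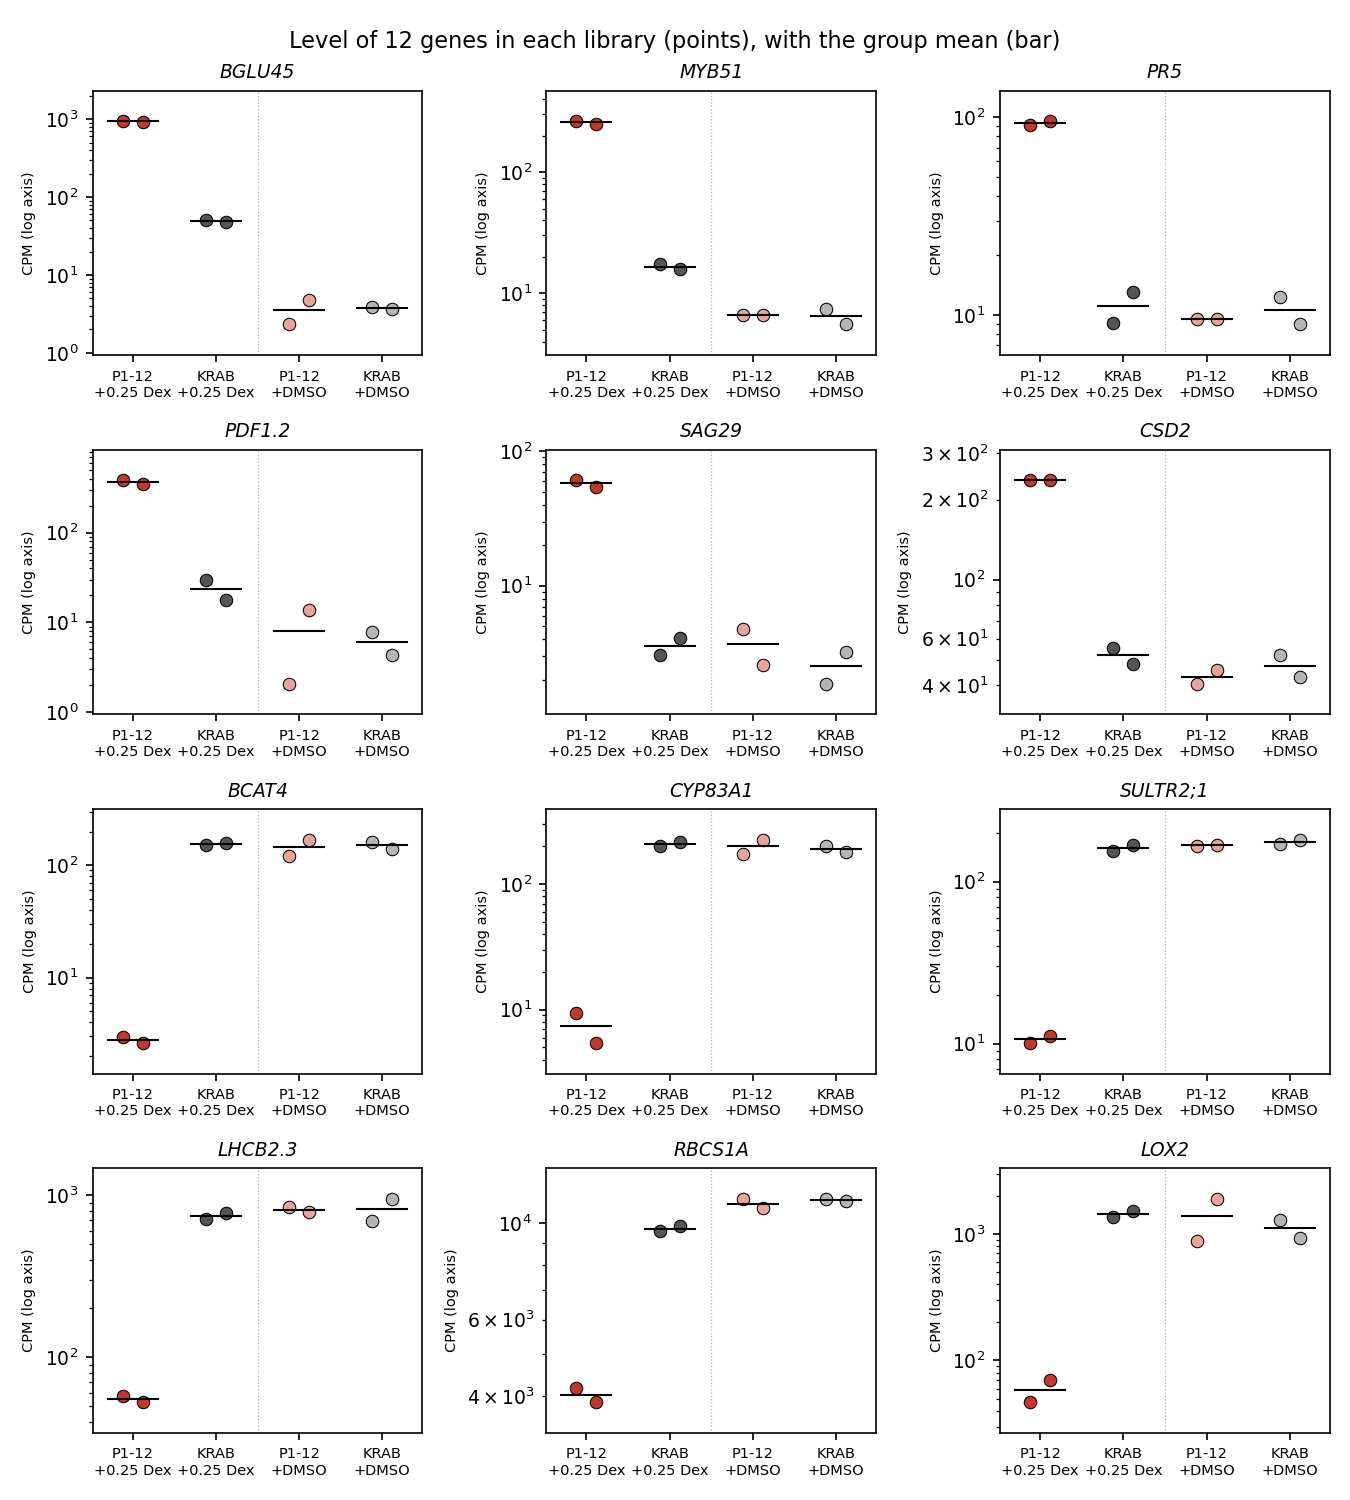
CPM on a log axis for 12 genes named in the text, with 1 point per library and a bar at the group mean, for P1-12 and KRAB at 0.25 μM Dex (left of the dotted line) and with DMSO (right). In *BCAT4* (2.95 and 2.62 CPM against 152 and 157 CPM) the P1-12 (+0.25 μM Dex) libraries lie alone, while in *BGLU45* KRAB (+0.25 μM Dex), at 51.4 and 47.8 CPM, lies between P1-12 (+0.25 μM Dex) and both groups with DMSO.

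Nuclear genes for photosynthesis fell. Of 30 photosystem and electron transport genes, all 30 fell (median log2FC −1.18, between −1.69 and −0.57), and 21 were SDEGs. Of 21 light-harvesting antenna genes 19 fell (median −1.39), and of 18 Calvin cycle genes 17 fell (median −0.81), beside 30.9% and −0.01 for all tested genes. *LHCB2.3*, an antenna protein gene of photosystem II, had 57.5 and 52.7 CPM in P1-12, against 711 and 777 CPM in KRAB (−3.76, SE 0.17, adjusted p = 6.06e-10), which set it far from the other antenna genes. *LHCB1.4* fell by 2.54 and *LHCB3* by 1.91. *RBCS1A*, the main Rubisco small subunit gene, had 4190 and 3879 CPM in P1-12, against 9573 and 9840 CPM in KRAB, and fell by 1.27, while *RBCS2B* fell by 2.23 and *RBCS3B* by 1.77. The *LHCB1* and *RBCS* copies share long stretches of sequence, and reads could be assigned to the wrong copy. The photosystem genes of largest change were *PSBQ1* (−1.69), *PSAH2* (−1.60), *PSBQ2* (−1.54) and *PETE2* (−1.54), within a narrow range. *CP12-2*, a regulator of the Calvin cycle, was the one gene of these 3 lists that rose (0.29, adjusted p = 0.0351), and its adjusted p was 0.25 without KRAB (+0.25 μM Dex) replicate 2, 0.0639 without P1-12 (+0.25 μM Dex) replicate 1 and 0.135 without replicate 2.

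Genes for chlorophyll synthesis and plastid gene expression also fell. Of 25 tetrapyrrole genes 23 fell and 2 rose (median −1.15). *PORC* and *PORB*, which encode the light-dependent step of chlorophyll synthesis, fell by 2.31 and 1.96, *DVR* by 1.91 and the magnesium chelatase gene *CHLI2* by 1.68. *PORC* had 35.7 and 36.4 CPM in P1-12, against 163 and 196 CPM in KRAB. The 2 that rose were *HEMA2* (0.55), which feeds the pathway outside photosynthetic tissue, and the ferrochelatase gene *FC1* (0.24), on the heme branch. Of 21 genes for plastid transcription 19 fell and 1 rose (median −1.14). *TRXZ* (−2.03), *FLN2* (−1.91) and *FSD2* (−1.68) encode proteins that attach to the plastid-encoded polymerase, and *SIG4* (−1.66) one of its sigma factors. The exception was *RPOTMP* (0.60), a phage-type polymerase that works in plastids and mitochondria. Of 13 nuclear genes for plastid ribosomal proteins 12 fell (median −1.48), led by *PRPL35* (−1.84), *PRPS20* (−1.73), *PRPL11* (−1.73) and *PSRP6* (−1.65). *PRPL35* had 55.0 ± 0.862 CPM in P1-12, against 197 ± 4.21 CPM in KRAB (SD, n = 2 each). Cytosolic ribosomal protein genes also fell, 45 of 51, but by less: their median was −0.59 and none was an SDEG.

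Most chloroplast chaperone and protease genes fell. Of 23 chaperone and protease genes 17 fell and 2 rose (median −0.58). The 4 largest changes were subunits of the chaperonin that folds Rubisco: *CPN60B2* (−1.97), *CPN60B1* (−1.88), *CPN20* (−1.66) and *CPN60A1* (−1.64). *CPN60B1* had 237 and 219.7 CPM in P1-12, against 837 and 849.8 CPM in KRAB. *CLPD*, a stress-inducible Clp subunit gene, rose by 1.31, and *FTSH8*, a thylakoid protease gene, by 0.89. Among 12 regulators of greening and retrograde signalling, 5 fell and 3 rose, with a median of 0.02. *GLK2* (−1.81) and *GLK1* (−0.98), activators of photosynthesis genes, *GNC* (−1.13) and *PIF4* (−1.11) fell. *BBX21* (0.98), *PTM* (0.48) and *PIF5* (0.24) rose, the last with an adjusted p of 0.0111 that became 0.0534 without P1-12 (+0.25 μM Dex) replicate 1.

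**Figure D4:**
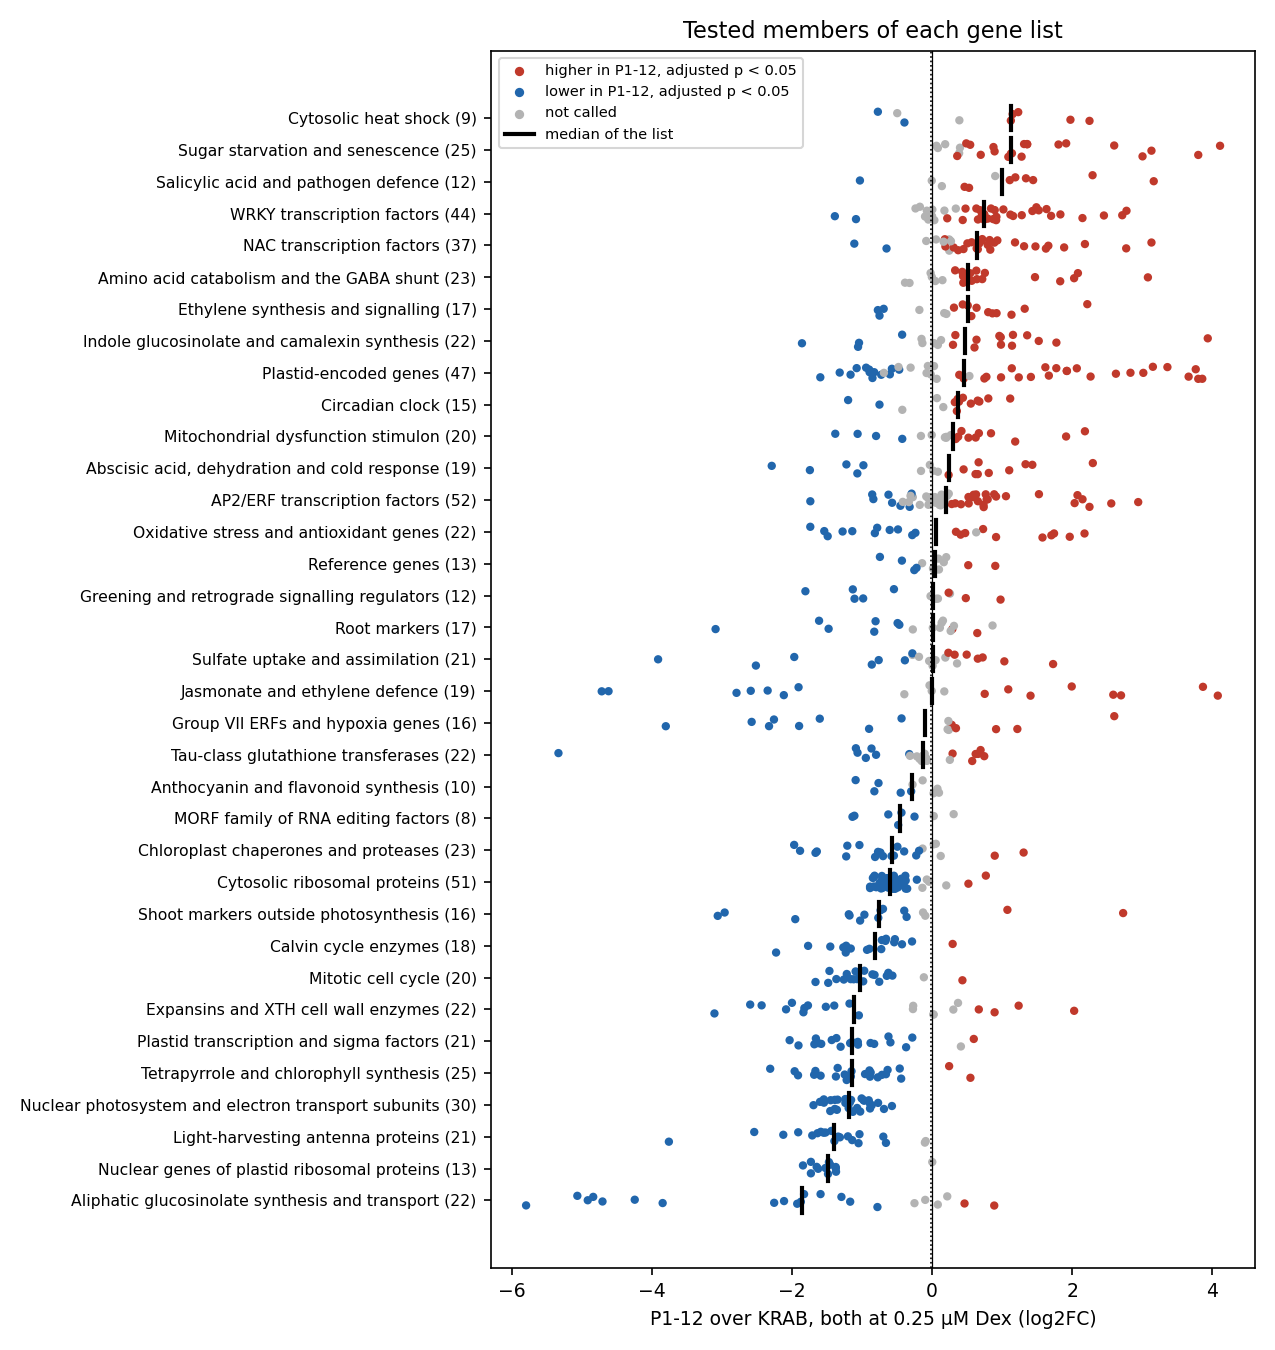
Each line is 1 list of genes with at least 8 tested members, with the number of tested members in brackets, and each point the log2FC of 1 member for P1-12 over KRAB at 0.25 μM Dex (horizontal axis); red points rose, blue points fell and grey points were not called at an adjusted p under 0.05. Black bars are list medians, ordered from −1.85 (aliphatic glucosinolate synthesis) to 1.12 (cytosolic heat shock), and the dotted line is the median of all tested genes, −0.01.

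Chloroplast-encoded transcripts split in both directions. Of 47 plastid-encoded loci tested, 24 rose and 14 fell, with a median log2FC of 0.45 and a range from −1.59 to 3.86. ATCG00340 had 285 and 185 CPM in P1-12, against 16.4 and 15.8 CPM in KRAB. *atpF* (ATCG00130), which encodes a subunit of the plastid ATP synthase, had 40.2 and 22.5 CPM in P1-12, against 2.41 and 1.96 CPM in KRAB (3.76, SE 0.34, adjusted p = 3.5e-07). ATCG00020 rose by 3.66. Among those that fell, ATCG01130 had 598 and 474 CPM in P1-12, against 1563 and 1676 CPM in KRAB (−1.59), and ATCG00430 (−1.32), ATCG00800 (−1.16) and ATCG00420 (−1.08) followed. In ATCG00340, *atpF*, ATCG00020 and ATCG01130 replicate 1 of P1-12 was the higher of the pair, and its plastid-encoded share of counts was 0.799%, that of replicate 2 0.609%, against 0.891% and 0.874% in the KRAB libraries. The total share was thus lower in P1-12 while the loci split. Genes for plastid transcription themselves differed: *rpoC1* (ATCG00180) rose by 1.92, *rpoB* (ATCG00190) by 0.39, and *rpoA* (ATCG00740) fell by 0.47.

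Mitochondrion-encoded counts were higher in P1-12. They made up 0.328% and 0.255% of the counts in the P1-12 libraries, against 0.0753% and 0.0719% in the KRAB libraries. All 3 tested loci rose, and the other 143 of the 146 loci were not tested. ATMG00020 had 2058 and 1662 CPM in P1-12, against 566 and 561 CPM in KRAB (1.72, SE 0.09, adjusted p = 2.73e-09). ATMG01390 had 960 and 686 CPM in P1-12, against 170 and 142 CPM in KRAB (2.39), and ATMG00090 rose by 2.81. ATMG00020 and ATMG01390 held most of the mitochondrion-encoded counts in these libraries, so the share says little about the other loci. The share was 0.0693% and 0.0691% in P1-12 (+DMSO), against 0.0623% and 0.0664% in KRAB (+DMSO), below every P1-12 (+0.25 μM Dex) value. How the libraries captured RNA without a poly(A) tail is not given in the sources used here, and its part in the organelle counts was not tested.

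Glucosinolate genes divided by their starting amino acid. Of 22 genes for aliphatic glucosinolates 16 fell and 2 rose, with a median of −1.85, the lowest of the lists with at least 8 tested members, and 15 were SDEGs. *FMOGS-OX2* (0.89) and the transporter gene *GTR2* (0.46) were the 2 that rose. Of 22 genes for indole glucosinolates and camalexin, which start from tryptophan, 13 rose and 4 fell, with a median of 0.47. *MYB51* (3.94) and *CYP83B1* (1.77), the indole counterpart of *CYP83A1*, rose, as did the camalexin regulator *WRKY33* (1.52) and the exporter gene *PEN3* (1.36). *CYP83B1* had 1143 and 1251 CPM in P1-12, against 376 and 322 CPM in KRAB, and its level in KRAB (+DMSO) averaged 199 CPM. *MYB34*, the other main activator of the indole branch, fell by 1.86 (11.6 and 10.1 CPM in P1-12, 38.5 and 40.1 CPM in KRAB), opposite to *MYB51*. *PAD3*, the last step to camalexin, fell by 1.06, and *GSTF6* by 1.04.

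Sulfate genes, which supply the sulfur of both kinds of glucosinolate, had no common direction. Of 21 genes 7 rose and 7 fell, with a median of 0.01. *SULTR2;1*, a vascular sulfate transporter gene, had 10.1 and 11.2 CPM in P1-12, against 155 and 167 CPM in KRAB (−3.91, SE 0.10, adjusted p = 3.56e-12), the largest change of the list. *SULTR3;5* fell by 2.51. The ATP sulfurylase genes parted, with *APS3* falling by 1.97 and *APS4* rising by 1.73. *SDI2*, a sulfur deficiency marker gene, rose by 1.03.

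Salicylic acid genes rose and jasmonate genes split. Of 12 tested genes for salicylic acid and pathogen defence 8 rose and 1 fell, with a median of 1.01. *PR5*, a marker of this response, had 91.4 and 95.6 CPM in P1-12, against 9.11 and 13.1 CPM in KRAB (3.16, SE 0.14, adjusted p = 4.57e-10), and with DMSO 9.58 and 9.54 CPM in P1-12, against 12.3 and 8.94 CPM in KRAB. *ACD6* rose by 2.29, *ICS1*, which makes the salicylic acid precursor in chloroplasts, by 1.44 and *SAG101* by 1.34. *AGD2*, a lysine synthesis gene, fell by 1.03. The count filter left out 13 genes of this list, which are not part of these counts. Among 19 genes for jasmonate and ethylene defence 8 rose and 7 fell, with a median of −0.00. The 8 that rose were the defensin genes *PDF1.3* (4.08), *PDF1.2* (3.87) and *PDF1.2C* (1.99), the chitinase-type genes *PR4* (2.70) and *PR3* (1.09), their activator *ORA59* (2.59), and the jasmonate repressor genes *JAZ10* (1.41) and *JAZ1* (0.75). The 7 that fell were the jasmonate synthesis genes *LOX2* (−4.62), *LOX3* (−2.59), *AOS* (−2.35), *AOC1* (−2.12) and *AOC2* (−1.91), and the jasmonate-responsive genes *CORI3* (−4.71) and *JAL22* (−2.79). *LOX2*, a chloroplast lipoxygenase gene, had 46.7 and 70.4 CPM in P1-12, against 1355 and 1530 CPM in KRAB. *LOX2* had 886 and 1895 CPM in P1-12 (+DMSO), against 1284 and 927 CPM in KRAB (+DMSO), so the spread between libraries of 1 group was wide but did not reach the P1-12 (+0.25 μM Dex) level.

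Of 44 *WRKY* genes 31 rose and 2 fell (median 0.74), and of 37 *NAC* genes 26 rose and 2 fell (median 0.64). *WRKY18*, a regulator of defence, had 171 and 171 CPM in P1-12, against 28.1 and 20.2 CPM in KRAB (2.78, SE 0.14, adjusted p = 1.09e-09). *WRKY45* rose by 2.71, *WRKY54* by 2.45 and *WRKY26* by 2.15, while *TTG2* (−1.39), known for trichome and seed coat development, and *WRKY2* (−1.09) fell. *ATAF1* had 379 and 371 CPM in P1-12, against 47.7 and 36.1 CPM in KRAB, and *NAC1* (2.77), *ANAC053* (2.18) and *LOV1* (1.89) rose as well. Among 52 AP2/ERF genes 24 rose and 8 fell (median 0.20), a share of rising genes nearer to the background of 29.2%. *ERF15* (2.94), *RAP2.2* (2.60), AT4G39780 (2.56) and *DREB2A* (2.25) led it, and *ANT*, a regulator of organ growth, fell by 1.74. Fewer AP2/ERF genes fell under DESeq2, run on the same genes, and with thinned counts, 5 in each. The number was also smaller without P1-12 (+0.25 μM Dex) replicate 2 or without KRAB (+0.25 μM Dex) replicate 1, where the members tested can differ.

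Mitochondrial, oxidative and hypoxia genes gave mixed lists. Of 20 genes of the mitochondrial dysfunction stimulon 10 rose and 4 fell (median 0.30). *ANAC053* (2.18), a NAC factor, *ZAT12* (1.91) and *UGT74E2* (1.19) rose, whereas *UPOX* fell by 1.38. Of 22 antioxidant genes 10 rose and 11 fell. The copper-zinc superoxide dismutase genes *CSD2* (2.18) and *CSD1* (1.70) rose together with their copper chaperone gene *CCS* (1.97), and the iron enzyme gene *FSD1* fell by 1.28. *CSD2* had 236 and 237 CPM in P1-12, against 55.5 and 48.2 CPM in KRAB. *RBOHD*, the NADPH oxidase gene of the oxidative burst, rose by 1.74, and the chloroplast peroxiredoxin genes *2CPB* (−1.74), *2CPA* (−1.54) and *PRXQ* (−1.49) fell. Of 16 hypoxia genes 5 rose and 8 fell. *RAP2.2*, a group VII ERF gene, had 947 and 923 CPM in P1-12, against 154 and 154 CPM in KRAB, and *PDC2* rose by 1.22, while the hypoxia-inducible genes *HUP7* (−3.80), *HB1* (−2.57), *SUS4* (−2.33) and *HRA1* (−2.26) fell.

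Starvation and catabolic genes rose. Of 25 genes for sugar starvation and senescence 20 rose and none fell (median 1.12), and 14 were SDEGs, beside 29.2% rising among all tested genes. *SAG29* had 60.8 and 54.6 CPM in P1-12, against 3.04 and 4.09 CPM in KRAB, and *ATAF1* (3.13) and *DIN11* (3.00) followed. Of 23 genes for amino acid catabolism and the GABA shunt 17 rose and none fell (median 0.51). *BCAT2*, a mitochondrial branched-chain aminotransferase gene, had 75.4 and 61.0 CPM in P1-12, against 8.76 and 6.50 CPM in KRAB (3.08, SE 0.14), a change opposite to that of *BCAT4*. *MGL*, which degrades methionine, rose by 2.08 and the isovaleryl-CoA dehydrogenase gene *IVD* by 1.83. Abscisic acid and cold genes did not move as one: of 19, 10 rose and 5 fell. *RAB18* (2.29), *ABI2* (1.43) and *COR47* (1.33) rose, and *KIN2* (−2.29), *P5CS1* (−1.74) and *RD29A* (−1.22) fell. *RAB18* had 34.6 and 17.9 CPM in P1-12, against 4.73 and 6.50 CPM in KRAB, the higher value again in replicate 1.

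Ethylene and heat genes tended upwards. Of 17 genes for ethylene synthesis and signalling 11 rose and 3 fell (median 0.51). The ACC oxidase genes, whose products make ethylene, were divided, with *ACO3* (2.22) and *ACO1* (1.13) rising and *ACO4* (−0.77) falling. The members tested can change when 1 library is left out, so the 3 that fell are a count for the main filter only. The feedback genes *EBF2* (1.32) and *ETR2* (0.92) rose. Of 9 tested cytosolic heat shock genes 5 rose, all as SDEGs, and 2 fell: *DREB2A* (2.25), *HSFA7A* (1.98), *HSP70-4* (1.23) and *HSP90.1* (1.15) were among those that rose. Among 10 tested anthocyanin and flavonoid genes 5 fell and none rose, the largest being *4CL3* (−1.09). The count filter left out 10 further genes of this list.

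Growth genes fell. Of 20 mitotic cell cycle genes 18 fell and 1 rose (median −1.03). *CYCB1;1*, a marker of cells entering mitosis, had 4.11 and 3.84 CPM in P1-12, against 12.5 and 12.6 CPM in KRAB (−1.66, SE 0.17, adjusted p = 1.48e-06), and *CYCA1;1* (−1.48), *CYCB2;2* (−1.46) and *CDKB1;1* (−1.37) fell with it. The exception was *CYCD3;3* (0.43). Of 22 expansin and *XTH* genes, which loosen cell walls, 12 fell and 4 rose (median −1.11). *EXPB3* had 9.37 and 10.6 CPM in P1-12, against 86.8 and 85.3 CPM in KRAB (−3.11), and *XTH31* (−2.60), *EXPA5* (−2.43) and *XTH9* (−2.08) followed, while *XTH23* rose by 2.03. Among the 4 that rose was also *XTH17*, which was higher in P1-12 with DMSO as well. Most clock genes rose: 10 of 15 rose and 2 fell, with *GI* (1.12) and *TOC1* (0.80) above and *PRR9* (−1.20) and *CHE* (−0.75) below.

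Markers of organs were set beside these lists. Summed over 23 root markers the level was 418 and 484 CPM in P1-12, against 415 and 406 CPM in KRAB. Of the 17 tested 2 rose and 7 fell (median 0.01), and the largest falls were in the nitrate transporter gene *NRT2.1* (−3.09) and the root hair gene *PRP3* (−1.61). The number of root markers called changed when 1 of the 4 libraries was left out, in fits whose tested members can differ. Summed over 20 shoot markers outside photosynthesis the level was 1165 and 1177 CPM in P1-12, against 1819 and 1921 CPM in KRAB, and the 4 libraries with DMSO lay between 1773 and 1933 CPM. Of the 16 tested 12 fell and 2 rose (median −0.75). The wax gene *CER1* (−3.06), the guard cell channel gene *KAT1* (−2.96), and the epidermal genes *PDF1* (−1.95) and *ATML1* (−1.19) fell. *SPCH*, which starts the stomatal lineage, rose instead, with 49.3 and 53.3 CPM in P1-12, against 8.31 and 6.59 CPM in KRAB (2.73, SE 0.13, adjusted p = 1e-09), and *TMM*, expressed in the same lineage, rose by 1.08. No root marker and no shoot marker was at 0 counts in the 4 libraries, except 1 shoot marker in P1-12 (+0.25 μM Dex) replicate 2. The part of a change in organ make-up in the lists above was not tested.

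Common reference genes were not all stable. Of 13 tested, 2 rose and 4 fell. *UBQ10* had 3042 and 3167 CPM in P1-12, against 1717 and 1603 CPM in KRAB (0.90), and *ACT2* rose by 0.52. *GAPC2* fell by 0.74 and *EF1A* by 0.43.

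The filter on 9 libraries removes any gene that is near 0 in both libraries of a group, so these were tested after asking for more than 2 CPM in only 2 libraries. This added 1784 genes, of which 218 were upregulated and 221 downregulated SDEGs. A gene can pass this filter only through the libraries of the group in which it is high, so these counts are values only and no support for a direction. Under this filter 6.3% of 18505 genes were upregulated and 7.65% downregulated SDEGs. Without P1-12 (+0.25 μM Dex) replicate 1 the added SDEGs were 123 up and 94 down, without replicate 2 139 up and 79 down, and without KRAB (+0.25 μM Dex) replicate 1 94 up and 141 down. Without KRAB (+0.25 μM Dex) replicate 2 they were 162 up and 180 down. Genes with 1 to 3 counts in a group are given as the ratio of P1-12 over KRAB of the summed scaled counts with its 95% counting interval, and a group at 0 is set to a floor of 3 counts over its 2 libraries. Intervals and floors cover counting error only.

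The 6 genes with the largest falls under the relaxed filter had between 0 and 4 counts in each P1-12 library. *FAMT*, a farnesoic acid methyltransferase gene, had 0 and 0 counts in P1-12, against 1224 and 269 counts in KRAB, which is at least 195-fold lower. *GASA5* had 0 and 0 counts against 399 and 104 counts (at least 65.8-fold lower), *GolS4*, a galactinol synthase gene, 0 and 0 against 262 and 60 counts (at least 42.1-fold lower), and AT3G21950 0 and 0 against 207 and 62 counts (at least 35.2-fold lower). *MBP1*, a myrosinase-binding protein gene, had 1 and 1 counts in P1-12, against 5890 and 1218 counts in KRAB, a ratio of 0.000717 (8.68e-05 to 0.00259). *BAM5*, a beta-amylase gene, had 4 and 0 counts in P1-12, against 3656 and 1640 counts in KRAB (log2FC −9.13, SE 1.01). No P1-12 library of these 6 genes came near a KRAB library, but *MBP1* ranged over 360 and 2345 counts in P1-12 (+DMSO) and *FAMT* over 115 and 364 counts there, so they vary several-fold between libraries of 1 group.

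Further list members under the filter, chosen after their values were seen, are given as values only and are no support for a direction of their lists, since a gene such as *PR1* passed the relaxed filter mainly through the libraries in which it is high. The aliphatic glucosinolate activator *MYB29* had 1 and 0 counts in P1-12, against 357 and 126 counts in KRAB, a ratio of 0.00528 (0.000133 to 0.0295). *CYP79F1*, the entry enzyme gene of that pathway, had 10 and 8 counts in P1-12, against 4560 and 1436 counts in KRAB (−7.05). Of the jasmonate marker genes *VSP2* had 6 and 9 counts in P1-12, against 8952 and 2312 counts in KRAB (−8.15), and the anthocyanin gene *DFR* had 8 and 4 counts in P1-12, against 648 and 269 counts in KRAB (−4.99). On the other side, *PR1*, a salicylic acid marker, had 643 and 570 counts in P1-12, against 8 and 14 counts in KRAB (7.08, SE 0.68, adjusted p = 1.13e-06). *RLP23*, an immune receptor gene, had 351 and 403 counts in P1-12, against 28 and 10 counts in KRAB (5.65). The plastid-encoded *accD* (ATCG00500) had 203 and 115 counts in P1-12, against 27 and 6 counts in KRAB (4.65).

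Of the 6 genes with the largest rises under the relaxed filter, *CRU3*, *CRA1*, *TIP3;1* and *TIP3;2* are known from seeds. *CRU3* and *CRA1* encode 12S seed storage globulins. *CRA1* had 7599 and 686 counts in P1-12, against 5 and 0 counts in KRAB (12.02, SE 1.44), and *CRU3* had 4804 and 324 counts in P1-12, against 0 and 1 counts in KRAB, a ratio of 13065 (2344 to 516151). The tonoplast channel gene *TIP3;2* had 206 and 201 counts in P1-12, against 0 and 0 counts in KRAB, at least 346-fold higher. *TIP3;1* had 504 and 153 counts in P1-12, against 0 and 0 counts in KRAB, at least 558-fold higher. AT2G28490 (456 and 96 counts in P1-12) and AT5G35660 (344 and 42 counts in P1-12) had 0 counts in both KRAB libraries. Replicate 1 held more than replicate 2 in all 6, by a few counts in *TIP3;2* and by over 10 times in *CRA1* and *CRU3*.

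The list of 24 seed storage and seed maturation genes was written after these values were seen. In 15 of them both P1-12 (+0.25 μM Dex) libraries had a higher level than each of the other 8 libraries. The same share over all loci was not computed, so the 15 are a description of a list chosen from these values. The oil body genes *OLEO1* (279 and 86 counts in P1-12, 1 and 0 in KRAB) and *OLEO2* (353 and 102 in P1-12, 1 and 0 in KRAB), the peroxiredoxin gene *PER1* (346 and 120 in P1-12, 1 and 0 in KRAB) and the seed regulator *ABI3* (131 and 59 in P1-12, 1 and 0 in KRAB) were among these. Defining genes of the same class were absent: the storage globulin gene *CRB* had 1 and 0 counts in P1-12, and the albumin gene *SESA4* 0 and 0 counts, against 1 and 0 counts each in KRAB. *OLEO4*, *DOG1* and *FUS3* were not higher in P1-12. Some of the 15 were near 0 in replicate 2. Of the albumins, *SESA2* had 83 and 2 counts in P1-12, against 1 and 0 counts in KRAB. *SESA3* had 28 and 1 counts in P1-12 and *SESA5* 20 and 1, against 0 and 0 counts each in KRAB. These albumins therefore rest on replicate 1. P1-12 (+0.025 μM Dex) had 60 and 17 counts of *CRA1* and 13 and 21 counts of *TIP3;2*, above the 4 to 8 and 0 to 1 counts of the 4 libraries with DMSO. Whether seeds or late seedlings were in the sampled material was not tested.

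**Figure D5:**
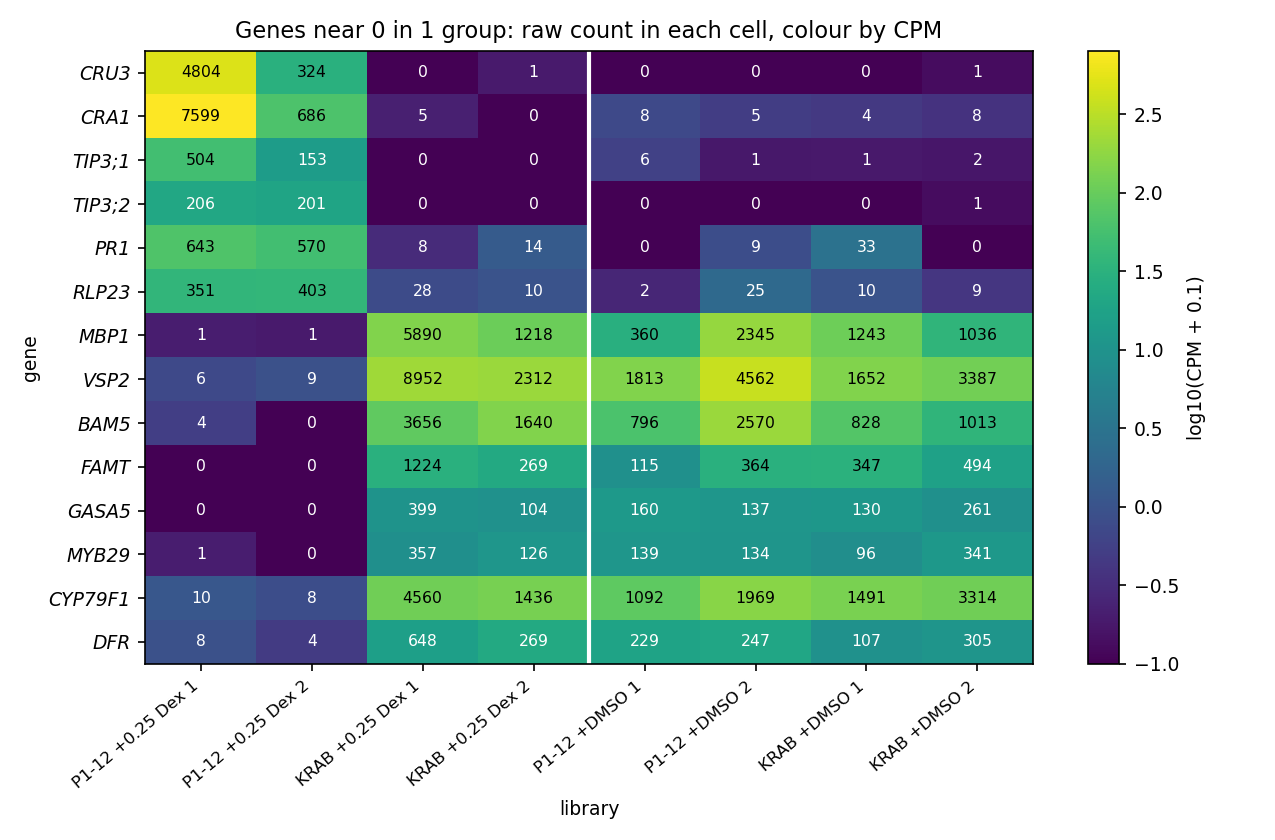
Raw counts (numbers) and log10(CPM + 0.1) (colour) of 14 genes that the main filter left out, 1 column per library, with P1-12 and KRAB at 0.25 μM Dex left of the white line and with DMSO right of it. The first 2 columns are bright for the seed genes and *PR1* (643 and 570 counts) and dark for the lower 8 genes, such as *GASA5* (0 and 0 counts against 399 and 104), and *CRA1* (7599 and 686 counts) shows how the 2 P1-12 libraries differ.

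The 300 bases before each annotated gene start were searched on both strands for known motifs in TAIR10.1. The W-box, TTGACC or TTGACT, which WRKY factors bind, was in 35.1% of the upregulated SDEGs with such a window (322 of 917) and in 24.9% of the downregulated ones (310 of 1246), against 31.7% of all 16545 tested genes. The G-box CACGTG was in 6.54% of upregulated and 8.75% of downregulated SDEGs, against 7.86% of all. The evening element AAAATATCT was in 4.25% of the upregulated and 3.05% of the downregulated SDEGs, against 2.99%. The GCC box GCCGCC of ERF factors was in 3.49% and 2.17%, against 2.42%, and the mitochondrial dysfunction motif in 1.42% and 1.04%, against 1.42%. A window can hold several of these motifs, and no test was made. The stretches with the W-box nearest the gene start are shown for 3 genes that rose and 1 that fell, since the motif was found before genes of either direction. Capitals mark the W-box or its reverse complement, and the strand is that of the gene.
WRKY33, chr2:16108193-16108218, plus strand: tattttcaacGGTCAAactttttatc
PR5, chr1:28177494-28177519, plus strand: gccatggccgAGTCAAaatgttaaga
SAG29, chr5:4183355-4183377, minus strand: tcaaaatattTTGACTacaatgg
LOX2, chr3:16525157-16525182, plus strand: tatcgggtaaGGTCAAaaagatattg
The first 3 stand before genes with a log2FC of 1.52, 3.16 and 4.11, and the last before one with −4.62. The genes were chosen to show both directions, so these stretches cannot tell how the motif relates to direction.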

How the data were processed

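RNA of whole seedlings was sequenced in 10 libraries. Per the submitters' notes, Trimmomatic, TopHat2 (TAIR10) and HTSeq were the authors' tools for trimming, alignment and counting. Neither their versions nor a strand setting is given in the sources used here, so overlapping, antisense and near-identical genes are uncertain. The deposited values are raw counts, whole numbers with no normalization, for 33602 loci; 8820 had 0 counts in every library. Each column was matched to its sample by its label, and 0 columns were left over. Of the loci, 32835 matched the TAIR10.1 annotation of RefSeq, which gave symbols, coordinates and sequences. MORF2 was read as AT2G33430 from general knowledge, since the annotation used here has no entry for that locus.

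The model was edgeR 4.0.16's quasi-likelihood fit (R 4.3.3, TMM, 1 mean per group over all 10 libraries, glmQLFTest, Benjamini-Hochberg adjustment). Genes needed more than 2 CPM in 9 or more libraries. An SDEG combined an adjusted p under 0.0001 with a log2FC of 1 or more in size. The shared biological coefficient of variation was 0.0654. The code was tested on simulated data. Alternatives were DESeq2 1.42.0, edgeR's exact test, RLE scaling, other filters, thinned counts, a replicate block and leaving out each library.

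The genes named are MORF2, the 12 largest SDEGs in each direction, up to 4 members of largest change per list, loci within 10 kb of the P1 site, SDEGs that also differed without Dex, and the 6 largest in each direction under the relaxed filter. Further list members were chosen after their values were seen. The comparison and the lists were chosen with earlier results of these data known. Plastid loci are named only where the study pairs an ID with a name.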

Additional observations from a re-analysis of the deposited data

Results flagged for a closer look

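The interaction of line and Dex, from edgeR's quasi-likelihood test with Benjamini-Hochberg adjustment, asks whether the line difference with Dex differed from that with DMSO. It was called in 212 of the 228 genes that the naming rule and the lists gave, most of them chosen for their difference with Dex, and in 8033 of all 16721 tested genes at an adjusted p under 0.05. Values are given here for *MORF2* and for the gene among the 2 called without Dex in which it passed. For *MORF2* the difference between P1-12 and KRAB was lower by 1.07 on the log2 scale with Dex (interaction −1.07, SE 0.10, adjusted p = 1.36e-06), and both P1-12 libraries with Dex lay below both KRAB libraries. For *XTH17* P1-12 was above KRAB in both conditions, and the difference was smaller with Dex (interaction −1.33, SE 0.14, adjusted p = 4.23e-06).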

How the results depend on the processing

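The counts of SDEGs at 0.25 μM Dex (944 up, 1253 down) stayed within 1.5 times under DESeq2, the exact test, RLE scaling, the relaxed filter, thinned counts, the 4 libraries alone and an adjusted p under 0.01. With no filter 1435 were up and 1855 down. Leaving out 1 library gave 791 to 917 up and 949 to 1179 down, 4232 to 4638 genes higher and 4471 to 4971 lower, and a *MORF2* log2FC of −1.19 to −1.07. Without Dex, 2 genes were up and 0 down. With no filter these were 23 and 1, in the 4 libraries alone 1 gene was up, and leaving out 1 library gave 1 to 3 up and 0 down. For genes under the filter (218 up, 221 down), leaving out 1 library, an alternative chosen after seeing the data, gave 94 to 162 up and 79 to 180 down. The cause of these shifts was not tested. Replicate numbers did not pair the samples: same-numbered P1-12 and KRAB libraries at 0.25 μM Dex had a correlation of deviations of −0.044, and a replicate block gave 926 up and 1208 down. For the named genes, 2906 alternatives kept direction and call, 34 kept the direction but lost the call, and none reversed. List counts kept within 1.5 times in 909 alternatives and moved further in 53. The relaxed filter gave 18 salicylic acid genes that rose (8 with the stricter filter), some of which pass it mainly through the P1-12 (+0.25 μM Dex) libraries. The 2 libraries a group limit every error given, and the P1-12 libraries are the shallowest.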
